A study of Arabidopsis thaliana with 6 samples.

Results

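The core cell cycle genes of Arabidopsis thaliana are described here in inflorescence apices of wild type and of *bpcV*. They are 46 loci, chosen by gene name from the 32678 genes of the deposited files: 7 A-type, 9 B-type and 10 D-type cyclins, 5 cyclin-dependent kinases (CDKs) of the CDKA and CDKB types, 9 CDK inhibitors of the KRP and SIAMESE families, and 6 regulators of the cycle, namely *E2FA*, *E2FB*, *E2FC*, *DEL1*, *RBR1* and *WEE1*. All 46 loci were found in the files, and all 46 had enough reads to be tested. The question is how far the transcripts of the division machinery differ between genotypes in a mutant with altered gynoecium development.

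RNA was sequenced from apices with flowers up to stage 12, from 3 libraries of Columbia-0 wild type and 3 of *bpcV*, without treatment and under long days. *bpcV* is the quintuple mutant that carries *bpc1-2*, *bpc2*, *bpc3*, *bpc4* and *bpc6*, which affect BASIC PENTACYSTEINE transcription factors of class I (*BPC1*, *BPC2* and *BPC3*) and class II (*BPC4* and *BPC6*). The mutant is constitutive, so every cell of the plant carries all these alleles, and whole apices mix meristems, flowers of all early stages, gynoecia and anthers. In such bulk samples fewer cells of a type and less RNA per cell cannot be told apart. The libraries held between 16196042 and 21455150 expected counts (RSEM's estimate of the reads that belong to each gene). Transcripts of *BPC1*, *BPC2* and *BPC6* were lower in *bpcV*, with log2 fold changes of -5.25, -4.43 and -4.48, and those of *BPC4* had -0.62, whereas *BPC3* stood at 3.71 to 5.81 TPM in wild type and 5.91 to 7.30 TPM in *bpcV*. CPM are counts scaled to the library total multiplied by edgeR's TMM scaling factor. The correlation of log2 CPM between libraries of one genotype was 0.989 to 0.990 in wild type and 0.973 to 0.986 in *bpcV*. The *bpcV* libraries were thus more unlike each other.

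The plant cell cycle is driven by CDKs, which are active only when bound to a cyclin. D-type cyclins bind CDKA in G1 and phosphorylate the retinoblastoma protein RBR1, which frees E2F factors to switch on the genes of DNA replication. A-type cyclins act mainly from S phase to mitosis and B-type cyclins, with the plant-specific CDKB kinases, at the entry into mitosis. KRP and SIAMESE-type proteins bind and inhibit CDK complexes, and cells in which they prevail often replicate their DNA without dividing (endoreduplication). BPC proteins bind GA-rich DNA.

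Many genes of the G2 and M phases carry the MSA element, which MYB3R factors bind and which can hold the letters CCAACGG. Only this exact string was searched, so other forms of the element were not counted. The letters CCAACGG were searched on either strand from 250 bases before to 50 bases after the annotated start. They stood there in 7 of the 9 B-type cyclin genes and in none of the other 37 loci, against 1.85% of 27443 protein-coding genes. The 10 sites are shown because they are the sequence feature that most sets one class apart. Each is read in the direction of the CCAACGG letters, which are in capitals, with 10 bases on either side, from RefSeq's TAIR10.1 genome, and named by its locus.
AT4G37490 (chr4:17624353-17624379, plus strand): taaatgaaccCCAACGGtctgattgtt
AT5G06150 (chr5:1861684-1861710, plus strand): ggaggaggagCCAACGGttcaattcca
AT5G06150 (chr5:1861698-1861724, plus strand): cggttcaattCCAACGGtcatattttt
AT5G06150 (chr5:1861832-1861858, minus strand): tatttacagtCCAACGGcctcattcga
AT3G11520 (chr3:3627298-3627324, minus strand): agttcatcatCCAACGGctagaagtct
AT2G26760 (chr2:11401133-11401159, plus strand): ctcttcgtccCCAACGGctagtaataa
AT2G17620 (chr2:7663958-7663984, plus strand): ccctcatgatCCAACGGttatattcta
AT4G35620 (chr4:16901460-16901486, plus strand): ccttcatgatCCAACGGtcatcttaat
AT4G35620 (chr4:16901414-16901440, minus strand): ctgtctaaacCCAACGGtaactttttt
AT1G20610 (chr1:7137880-7137906, minus strand): tggcgttgatCCAACGGctgagatgaa
Of these 10 sites, 6 ran in the direction of the gene and 4 against it, and their centres lay from 169 bases before to 28 bases after the start. The letters were followed by T at 6 sites and by C at 4. In the order shown, the loci are *CYCB1;1*, *CYCB1;2* with 3 sites, *CYCB1;3*, *CYCB1;4*, *CYCB2;1*, *CYCB2;2* with 2 sites and *CYCB2;3*. *CYCB2;4* and *CYCB3;1* did not hold this exact string in the window, which does not show that they lack the element.

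The other strings searched, on both strands of the same windows, were not gathered in one class. The E2F string TTTCCCGC was found in 1 locus, *RBR1*, against 0.798% of all protein-coding genes. GAGAGAGA, a GA repeat of the kind BPC proteins bind, was found in 7 of the 46 loci (15.2%), against 8.38% of all genes. The telo-box AAACCCTA stood in 3 loci (6.52% against 6.22%) and the site II letters TGGGCC in 5 (10.9% against 15.5%). A match is a description of the letters, not a binding site.

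Levels differed widely between the loci. In TPM (the share of a library's transcripts, a level per gene length), the wild-type means ran from 1.45 for *CYCA2;1* to 97.1 for *SMR1*, with a median of 13.9. *SMR1* was followed by *CYCD3;2*, *CDKA;1*, *SIM* and *KRP2*, so that 3 of the 5 highest transcripts were CDK inhibitors. Summed over a class, the 9 inhibitors reached 278 to 291.1 TPM and the 10 D-type cyclins 236 to 264 TPM in the wild-type libraries. The CDKs summed to 148 to 157 TPM, the B-type cyclins to 108 to 122 TPM, the A-type cyclins to 66.6 to 71.0 TPM and the E2F, *RBR1* and *WEE1* group to 64.0 to 69.7 TPM. All 46 loci together held 902 to 964 TPM in wild type and 960 to 1051 TPM in *bpcV*.

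**Figure D1:**
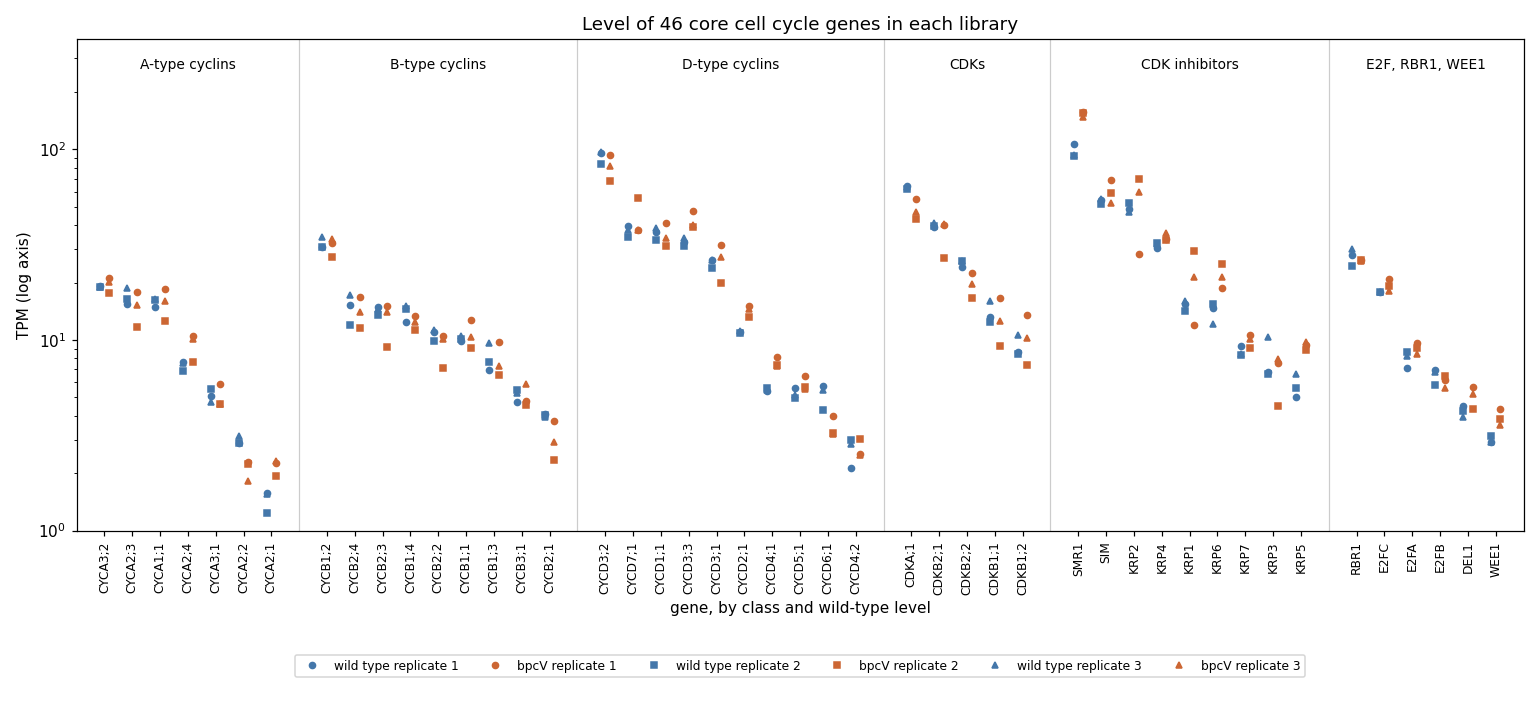
Level of each of the 46 genes in each library, in TPM on a log axis, where blue points are the 3 wild-type libraries, orange points the 3 *bpcV* libraries, and the symbol marks the replicate. The genotypes lie close together for most genes, and the orange points of *SMR1* stand above the blue ones.

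Genotypes were compared by edgeR's quasi-likelihood test over all 20813 genes that passed the filter on low counts, with the false discovery rate (FDR) of Benjamini and Hochberg over all of them and the threshold of 0.01 that the study used. *SMR1* rose in *bpcV*, and it was the only one of the 46 loci past this threshold in this test. That is 2.17% of the list, beside 3.89% of all genes tested in both directions and 1.66% in the upward direction alone. The differences were small on both sides: log2 fold changes ran from -0.58 to 0.70, and the median was 0.03 for the list and 0.01 for all genes. No locus differed by a log2 of 1 or more, against 5.02% of all genes tested, and the median absolute log2 fold change was 0.18 in the list and 0.19 over all genes.

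At an FDR of 0.05, 6 loci were higher in *bpcV* (13.04% of the list, against 5.69% of all genes) and 1 was lower (2.17%, against 6.35%). The 6 were *SMR1*, *KRP5*, *KRP6*, *CYCD2;1*, *CYCD3;3* and *CYCD4;1*, and the lower one was *CDKA;1*. The CPM of the 3 *bpcV* libraries lay above that of all 3 wild-type libraries for 11 loci (23.9%, against 18.2% of all genes) and below it for 5 (10.9%, against 17.6%). For 42 of the 46 loci the 95% interval of the log2 fold change lay within -1 and 1, and the exceptions were *CYCA2;1*, *CYCD6;1*, *KRP1* and *KRP5*. A missed threshold therefore does not show equal levels, but for these 42 loci the interval did not reach a doubling or halving.

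**Figure D2:**
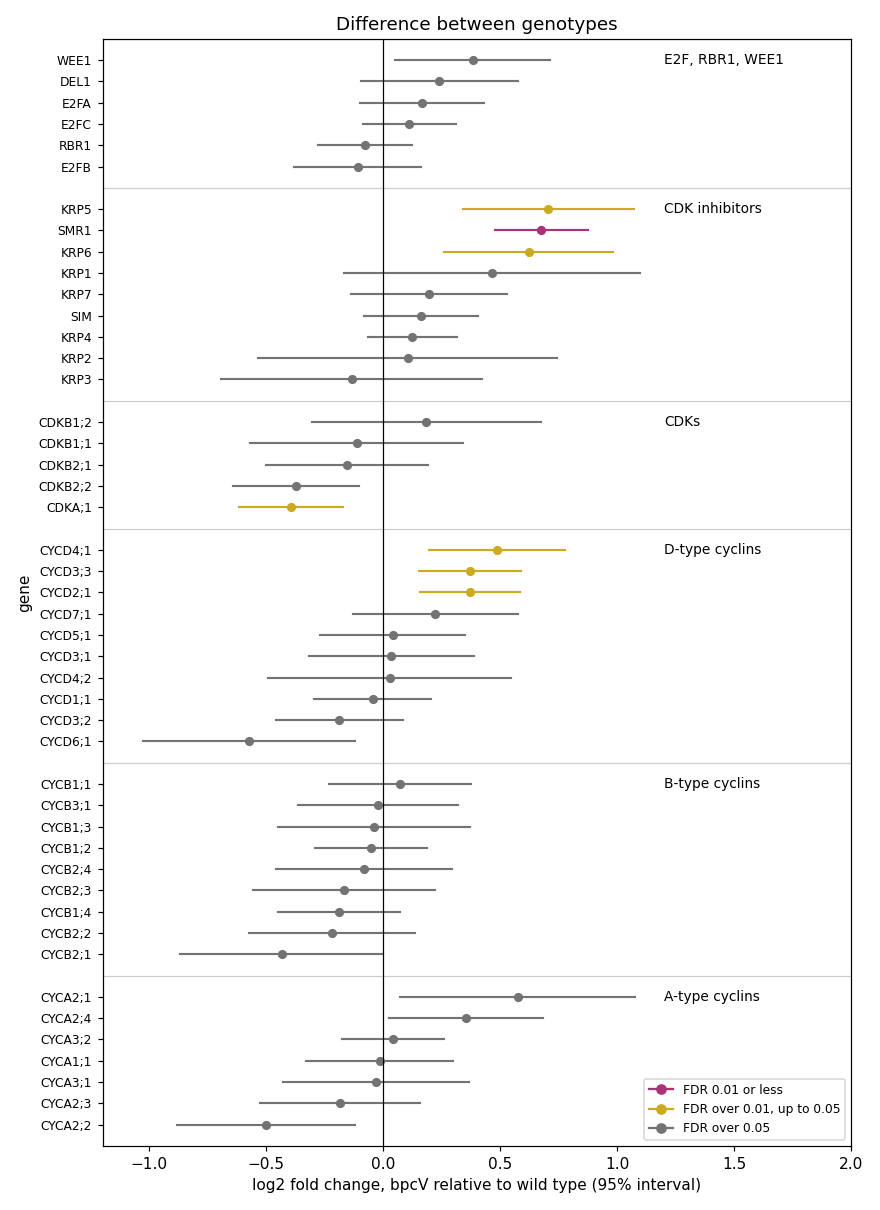
Log2 fold change of *bpcV* relative to wild type for the 46 genes, with its 95% interval, by class, with the FDR over all genes tested in colour. *SMR1* (0.67) is the only gene at an FDR of 0.01 or less, and the other 6 coloured genes lie between 0.01 and 0.05.

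CDK inhibitors held the one call. *SMR1* (AT3G10525, chr3:3281306-3282131, minus strand, 1 exon in TAIR10.1), also known as LOSS OF GIANT CELLS FROM ORGANS, encodes a SIAMESE-related inhibitor that is required for the large endoreduplicated cells of the sepal. It stood at 107, 91.8 and 93.0 TPM in the wild-type libraries and at 157, 155 and 148 TPM in the *bpcV* libraries. The groups did not overlap, and the lowest mutant library lay well above the highest wild-type one. Its log2 fold change was 0.67 ± 0.09 (SE, n = 3 per genotype, 95% interval 0.48 to 0.87), with an edgeR FDR of 0.0029. *SMR1* also passed 0.01 with DESeq2, with edgeR's likelihood ratio test and with limma on log2 TPM, but its FDR was between 0.0018 and 0.025 when a library was left out, and the call was lost without wild type replicate 1, 2 or 3 and without *bpcV* replicate 3. It was lost also with the replicate number as a block. The locus shares 375 bases with AT3G10527 on the opposite strand, a gene that is absent from the deposited files and so has no counts. As no source used here says whether reads were counted by strand, reads of the 2 genes cannot be told apart. The 250 bases before its start are shown because it is the one gene past the threshold, and they held none of the strings above.
AT3G10525 upstream (chr3:3282132-3282381, minus strand): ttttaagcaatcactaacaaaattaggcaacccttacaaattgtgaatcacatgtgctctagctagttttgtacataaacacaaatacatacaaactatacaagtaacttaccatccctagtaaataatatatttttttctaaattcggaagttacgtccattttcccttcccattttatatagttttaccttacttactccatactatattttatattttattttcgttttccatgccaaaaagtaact

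*KRP5* and *KRP6* were the next inhibitors by FDR. KRP proteins, the relatives of animal p27Kip1, bind CDKA and D-type cyclins, and *KRP6* is known from the male germ line, where its removal allows division. *KRP5* (AT3G24810, chr3:9060836-9062003) stood at 5.02, 5.59 and 6.65 TPM in wild type and 9.38, 8.82 and 9.78 TPM in *bpcV*, from 61 to 121 counts per library. Its log2 fold change was 0.70 ± 0.16 (SE), the largest of the list, with an edgeR FDR of 0.026. *KRP6* (AT3G19150, chr3:6616330-6617951) stood at 14.7, 15.5 and 12.1 TPM in wild type and 18.8, 25.1 and 21.5 TPM in *bpcV*, a log2 fold change of 0.62 ± 0.16 (SE) with an edgeR FDR of 0.039. For both genes every mutant library was above every wild-type library. Over the 14 other settings the FDR of *KRP5* ran from 0.0015 to 0.11 and that of *KRP6* from 0.0052 to 0.15.

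Of the 9 inhibitors, 8 had positive log2 fold changes and the median was 0.19. *KRP1* and *KRP2* differed most between the mutant libraries. *KRP2* stood at 48.5, 52.1 and 47.0 TPM in wild type and at 28.2, 70.0 and 59.6 TPM in *bpcV*, so that *bpcV* replicate 1 lay below and replicates 2 and 3 above all wild-type libraries. *KRP1* had 14.2 to 16.0 TPM in wild type and 12.0, 29.4 and 21.3 TPM in *bpcV*, in the same order of libraries. Neither could be called different (log2 fold changes 0.10 and 0.46, edgeR FDR 0.85 and 0.32). *KRP4*, at 30.4 to 32.3 TPM in wild type and 33.3 to 36.2 TPM in *bpcV*, had a log2 fold change of 0.12. *KRP7* had 0.19, *SIM*, the founding member of the SIAMESE family, had 0.16, and *KRP3* had -0.14.

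Without *SMR1*, the other 8 inhibitors summed to 185, 186 and 188 TPM in wild type and to 189, 239 and 219 TPM in *bpcV*. With it the class summed to 278 to 291.1 and 347 to 394 TPM. These sums are descriptions, with no test.

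*CDKA;1*, the main CDK of Arabidopsis, is active through G1, S and G2. This gene (AT3G48750, chr3:18071454-18074641, plus strand) was the most abundant CDK transcript, at 64.4, 62.1 and 63.5 TPM in wild type and 54.8, 43.2 and 47.1 TPM in *bpcV*. All 3 mutant libraries lay below all wild-type libraries. The log2 fold change was -0.40 ± 0.10 (SE, 95% interval -0.62 to -0.17) with an edgeR FDR of 0.036, and the FDR ran from 0.0035 to 0.13 over the other settings, under 0.01 only without *bpcV* replicate 1. The ratio of *SMR1* to this gene in TPM, chosen after the values were seen, was 1.65, 1.48 and 1.47 in wild type and 2.87, 3.60 and 3.15 in *bpcV*.

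The 4 CDKB genes, whose kinases work around the G2 to M transition, had log2 fold changes of -0.37 (*CDKB2;2*), -0.16 (*CDKB2;1*), -0.11 (*CDKB1;1*) and 0.18 (*CDKB1;2*). The first of these (AT1G20930) had 24.3 to 25.9 TPM in wild type and 16.6 to 22.4 TPM in *bpcV*, without overlap (edgeR FDR 0.076). None of the 5 CDKs passed an FDR of 0.01 in edgeR, DESeq2 or limma, and 2, the CDKA gene and AT1G20930, had an unadjusted edgeR p under 0.05. Over all genes tested 28.3% had such a p, 14.4% higher and 13.8% lower in *bpcV*. The summed CDK level was 150, 148 and 157 TPM in wild type and 147, 103 and 130 TPM in *bpcV*.

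D-type cyclins, the sensors of growth signals, had 3 genes at an FDR between 0.01 and 0.05. *CYCD3;3* (AT3G50070, chr3:18565134-18566834), one of the cytokinin-responsive *CYCD3* genes, stood at 32.7, 31.0 and 34.1 TPM in wild type and 47.6, 38.9 and 40.1 TPM in *bpcV* (log2 fold change 0.37 ± 0.09 SE, edgeR FDR 0.040). *CYCD2;1* (AT2G22490, chr2:9553797-9556167) stood at 10.97, 10.8 and 11.1 TPM in wild type and 15.01, 13.2 and 14.5 TPM in *bpcV* (0.37 ± 0.09 SE, FDR 0.038). *CYCD4;1* (AT5G65420, chr5:26141470-26144020) stood at 5.39, 5.62 and 5.43 TPM in wild type and 8.16, 7.43 and 7.33 TPM in *bpcV* (0.49 ± 0.13 SE, FDR 0.043). For each of the 3 genes the mutant libraries lay above all wild-type libraries. The FDR stayed over 0.01 in all 14 other settings for the 3 genes and was at most 0.05 in 7, 8 and 5 of them, in the order given.

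*CYCD3;2* (AT5G67260), another *CYCD3* gene and the most abundant cyclin transcript, stood at 95.4, 83.7 and 97.3 TPM in wild type and 93.1, 68.2 and 82.0 TPM in *bpcV*, with overlap (log2 fold change -0.19 ± 0.12 SE, edgeR FDR 0.35). *CYCD3;1* had 0.03 and *CYCD1;1* had -0.05. *CYCD6;1*, known from formative divisions of the root ground tissue, had the most negative log2 fold change of the list at -0.58 ± 0.20 (SE), with 4.29 to 5.72 TPM in wild type and 3.20 to 3.97 TPM in *bpcV*. Its edgeR FDR was 0.10, and it shares 847 bases with AT4G03260 on the opposite strand. *CYCD7;1*, known from the guard mother cells of stomata, was at 55.6 TPM in *bpcV* replicate 2 and between 34.8 and 39.5 TPM in the other 5 libraries. *CYCD5;1* had a log2 fold change of 0.04 and *CYCD4;2* 0.03.

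**Figure D3:**
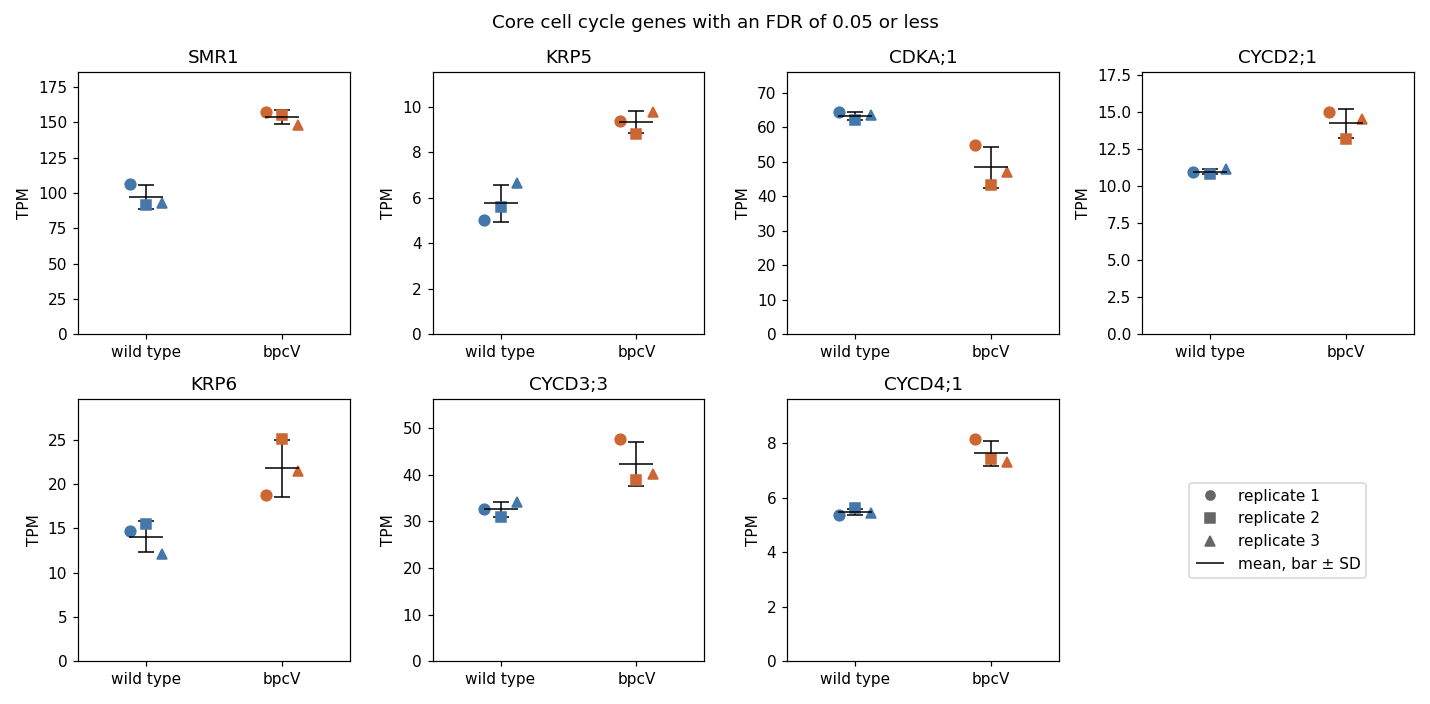
TPM of the 7 genes with an FDR of 0.05 or less in each library, with the mean and SD of each genotype (n = 3) and axes that start at 0. In each panel the 3 *bpcV* points lie on one side of the 3 wild-type points, below them for the CDK and above them for the others.

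None of the 7 A-type cyclins passed an FDR of 0.01 in edgeR, DESeq2, the likelihood ratio test or limma, and 3 had an unadjusted edgeR p under 0.05 (28.3% of all genes tested did). CYCA2 cyclins act with CDKB1 kinases and hold cells in the mitotic cycle. *CYCA2;1* was the lowest transcript of the list, at 1.57, 1.23 and 1.55 TPM in wild type and 2.25, 1.93 and 2.33 TPM in *bpcV* (log2 fold change 0.57 ± 0.22 SE, edgeR FDR 0.13). *CYCA2;2* lay on the other side, with 2.89 to 3.13 TPM in wild type and 1.82 to 2.30 TPM in *bpcV* (-0.50 ± 0.17 SE, FDR 0.092). *CYCA2;4* had 6.91 to 7.62 TPM in wild type and 7.67 to 10.5 TPM in *bpcV* (0.35 ± 0.14 SE, FDR 0.15), and *CYCA2;3* had a log2 fold change of -0.19. The most abundant gene, the S-phase cyclin *CYCA3;2* (AT1G47210), was at 19.2, 19.0 and 19.0 TPM in wild type and 21.2, 17.7 and 20.18 TPM in *bpcV* (0.04 ± 0.10 SE, FDR 0.82). *CYCA3;1* had -0.03 and *CYCA1;1* had -0.02.

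B-type cyclins, the partners of CDKs at mitosis, differed little between the genotypes but varied between the mutant libraries. None passed an FDR of 0.01 in edgeR, DESeq2, the likelihood ratio test or limma, and 1, *CYCB2;1*, had an unadjusted edgeR p under 0.05, a smaller share than the 28.3% of all genes (log2 fold change -0.43 ± 0.19 SE, FDR 0.18), with 3.96 to 4.09 TPM in wild type and 2.34 to 3.74 TPM in *bpcV*. *CYCB1;2* (AT5G06150), the most abundant of the class, was at 30.8, 30.7 and 34.7 TPM in wild type and 32.2, 27.2 and 33.7 TPM in *bpcV* (-0.05 ± 0.10 SE, FDR 0.78). Its expected counts were not whole numbers in 3 of the 6 libraries, and those of the other 45 loci were whole in all 6. *CYCB1;1*, widely used as a reporter of dividing cells, had a log2 fold change of 0.07, *CYCB1;3* -0.04, *CYCB1;4* -0.19, *CYCB2;2* -0.22, *CYCB2;3* -0.17, *CYCB2;4* -0.08 and *CYCB3;1* -0.02.

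In *bpcV* replicate 2 the CPM of all 9 B-type cyclins and of all 5 CDKs was the lowest of the 6 libraries. The same library was lowest for 4 of 7 A-type cyclins, 3 of 10 D-type cyclins, 1 of 9 inhibitors and none of the 6 E2F, *RBR1* and *WEE1* genes, and for 21.5% of all genes tested. Relative to the wild-type mean, the median log2 of the B-type cyclins was -0.02, -0.33 and -0.07 in *bpcV* replicates 1, 2 and 3, and that of the CDKs was -0.02, -0.57 and -0.12. *CDKB2;1*, for example, stood at 39.9, 26.9 and 40.8 TPM in the mutant libraries and at 39.0 to 40.9 TPM in wild type. AT1G20610, a B-type cyclin, stood at 15.1, 9.20 and 14.04 TPM in the mutant libraries and at 13.5 to 14.9 TPM in wild type. With all libraries 8 of 9 B-type cyclins and 4 of 5 CDKs had negative log2 fold changes, and without *bpcV* replicate 2 these counts were 3 of 9 and 2 of 5. *bpcV* replicate 1 had the highest CPM of the 6 libraries for 21 of the 46 loci, among them 6 D-type cyclins and 4 of the E2F, *RBR1* and *WEE1* group, against 27.5% of all genes tested.

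Marker genes of cell types differed in this library as well, in both directions. Of the 6 tested markers of inflorescence and floral meristems, 3 were lowest in *bpcV* replicate 2: *STM* at 35.2 TPM against 44.4 to 54.9 TPM in the other libraries, *KNAT1* at 21.4 against 30.0 to 36.6 TPM, and *WUS* at 8.58 against 9.68 to 15.1 TPM. *WUS* lay below all wild-type libraries (12.2 to 15.1 TPM) in all 3 mutant libraries (log2 fold change -0.47, edgeR FDR 0.075). *LFY* was low in *bpcV* replicates 1 and 2, at 0.98 and 1.04 TPM, against 1.45 to 2.35 TPM in wild type and 2.38 TPM in replicate 3. *AP1* and *AG* went the other way and lay above all wild-type libraries in all 3 mutant libraries. *AP1* was highest in replicate 2 at 178 TPM, and *AG* stood at 54.2 TPM there and at 45.97 to 51.24 TPM in wild type. *CLV3* was at 0 in all 6 libraries, and *DYT1* of the tapetum at 0.17 TPM or less. The summed level of the meristem list was nevertheless 259 to 267 TPM in wild type and 298 to 307 TPM in *bpcV*, of which *AP1* alone held 113 to 121 and 151 to 178 TPM. The 11 late pollen markers summed to 1194 to 1266 TPM in wild type and to 888, 1542 and 1231 TPM in *bpcV* replicates 1, 2 and 3. Of these sums *VGD1* alone held 677 to 741 TPM in wild type and 499, 838 and 699 TPM in *bpcV*. By CPM, 5 of the 11 were highest in replicate 2. Tapetum markers summed to 107 to 217 TPM in wild type and 76.3 to 126 TPM in *bpcV*, and ovule markers to 79.5 to 88.8 and 75.3 to 87.0 TPM. The 7 tapetum markers tested all had negative log2 fold changes, with a median of -0.59, beside 51.5% positive and a median of 0.01 over all genes. In edgeR none of the 7 passed an FDR of 0.01, and 1 was lower at 0.05, beside 6.35% of all genes. The part of these marker differences in the values of the cell cycle genes was not tested.

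**Figure D4:**
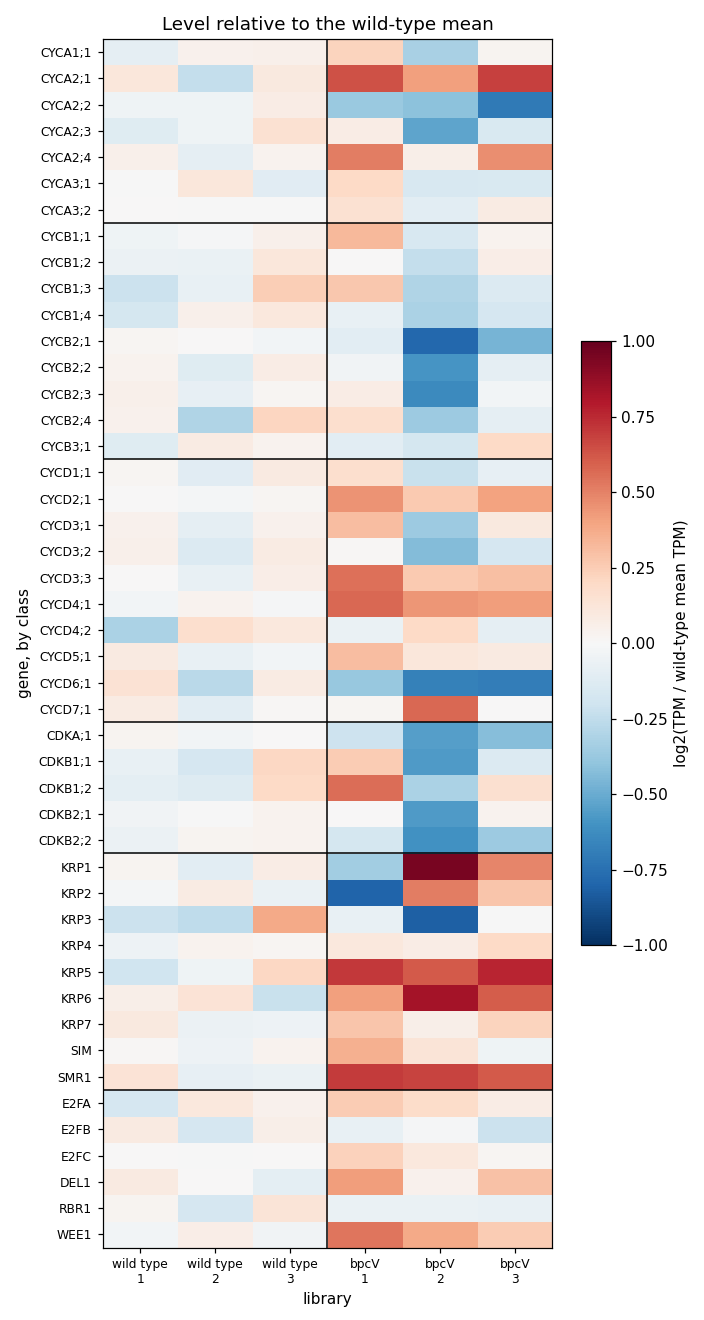
Level of each gene in each library as log2 of its TPM over the wild-type mean TPM, red above and blue below it, with lines between classes and between genotypes. The column of *bpcV* replicate 2 is blue for all B-type cyclins and CDKs, and the *SMR1*, *KRP5* and *KRP6* rows are red in all 3 mutant libraries.

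The coefficient of variation of TPM within a genotype was also compared. Its median over the 46 loci was 6.39% in wild type and 14.01% in *bpcV*, beside 6.89% and 12.9% over all genes tested. It was 3.63% and 21.8% for the CDKs, 7.10% and 18.4% for the B-type cyclins, and 7.89% and 7.25% for the E2F, *RBR1* and *WEE1* group. *RBR1* was at 26.2, 26.1 and 26.1 TPM in the mutant libraries.

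The retinoblastoma and E2F genes varied least between the mutant libraries, by the median coefficient of variation of the 6 classes. RBR1 represses E2F targets, E2FA and E2FB are activators, E2FC is mainly a repressor, DEL1 is an atypical E2F that delays the onset of endoreduplication, and WEE1 is a kinase that holds CDKs inactive after DNA damage. *RBR1* (AT3G12280), the most abundant, was at 27.9, 24.4 and 29.9 TPM in wild type (log2 fold change -0.08 ± 0.09 SE, edgeR FDR 0.61). *E2FA* had a log2 fold change of 0.16, *E2FB* -0.11, *E2FC* 0.11 and *DEL1* 0.24. *WEE1*, at 2.91 to 3.12 TPM in wild type and 3.56 to 4.32 TPM in *bpcV*, had 0.38 ± 0.14 (SE, FDR 0.13) and was the one gene of the 6 with an unadjusted p under 0.05, beside 28.3% of all genes. None of the 6 passed an FDR of 0.01 in edgeR, DESeq2, the likelihood ratio test or limma.

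Other genes of the cell cycle were read from 8 further lists. The 22 genes of DNA replication, most of them E2F targets in the textbook scheme, had positive log2 fold changes in 19 cases with a median of 0.25, beside 51.5% positive and a median of 0.01 over all genes. None passed an FDR of 0.01 in edgeR or limma. DESeq2 called 2 of the 22 and the likelihood ratio test 2, beside 1814 and 2233 of all 20813 genes tested. Of the 22, 5 higher and 1 lower had an unadjusted edgeR p under 0.05, beside 14.4% and 13.8% of all genes. Their summed level was 321 to 359 TPM in wild type and 383 to 438 TPM in *bpcV*. The 9 genes of mitosis and cytokinesis had a median of -0.11 and 6 negative values, none past an FDR of 0.01 in edgeR, DESeq2 or limma and 1 with an unadjusted p under 0.05 against 28.3% of all genes, and 7 of the 9 were lowest in *bpcV* replicate 2.

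Across the other lists, 3 genes passed an FDR of 0.01, beside 3.89% of all genes tested. Each was the only one of its list to pass, in the order below 1 of 5, 1 of 15 and 1 of 6 genes tested. *SDS* (AT1G14750), a cyclin that works in meiosis, rose from 1.17, 1.90 and 2.03 TPM in wild type to 4.05, 4.39 and 4.83 TPM in *bpcV* (log2 fold change 1.38 ± 0.22 SE, edgeR FDR 0.0063). The meiosis markers *ASY1* (1.76, FDR 0.0034) and *DMC1* (0.85, FDR 0.0072) rose as well. They lost the call in 3 and 4 of the 6 fits without a library (FDR up to 0.023 and 0.042). Over all 14 other settings *ASY1* passed 0.01 in 11 and *DMC1* in 7. The other 4 of this list did not pass: *ZYP1B* had -0.98 (FDR 0.015, lower without overlap), *SYN1* -0.48, *ZYP1A* 0.02 and *SPO11-1* 0.39. The list summed to 15.7 to 19.1 TPM in wild type and 25.8 to 30.0 TPM in *bpcV*. *APC6* (AT1G78770), a subunit of the anaphase-promoting complex, which marks mitotic cyclins for destruction, rose from 5.88, 5.26 and 5.82 TPM to 9.69, 8.44 and 8.55 TPM (0.64 ± 0.10 SE, FDR 0.0070) as 1 of 15 genes of that list. *SDS* and *APC6* missed 0.01 in limma with a pseudocount of 1 (FDR 0.011 and 0.016) and in 5 of 6 fits that left out a library, where the FDR reached 0.027 and 0.047, and of these fits only the one without *bpcV* replicate 1 kept it. With the replicate block *APC6* had an FDR of 0.020. AT4G29000, which RefSeq describes as a protein with a Tesmin/TSO1-like CXC domain, fell from 10.7, 10.7 and 10.5 TPM to 5.35, 4.67 and 5.74 TPM (-1.02 ± 0.11 SE, FDR 0.0012; 0.010 and 0.011 without wild type replicates 1 and 2). In the remaining lists, of CDK partners, DP and atypical E2F genes and the other SIAMESE-related inhibitors, no gene passed in edgeR. DESeq2 called 1 of 9, 0 of 4 and 0 of 4 genes tested, beside 1814 of all 20813. An unadjusted edgeR p under 0.05 was found for 1, 0 and 1 of them, and for 28.3% of all genes. The nearest to the threshold was *CKS1*, a CDK partner (log2 fold change 0.60 ± 0.11 SE, edgeR FDR 0.0105). It stood at 78.0, 73.0 and 75.6 TPM in wild type and 126, 96.7 and 116 TPM in *bpcV*, without overlap. Of the 7 SIAMESE-related genes besides *SIM* and *SMR1*, 4 had enough reads to be tested, and their log2 fold changes were -0.10 to 0.42.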

How the data were processed

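Poly-A RNA of 3 wild-type and 3 *bpcV* samples was sequenced from both fragment ends. After bowtie2 alignment to TAIR10 transcripts, the authors deposited RSEM expected counts, TPM and effective lengths in bases for 32678 genes in each library. The versions of Bowtie2 and RSEM are not given in the sources used here. The deposited expected counts are estimates with no normalization. TPM, as the authors deposited it, is scaled by effective length and library. A series table of 6 columns of normalised values with the authors' fold changes, p-values and FDR was not used.

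Rounded counts entered edgeR 4.0.16 in R 4.3.3. Genes with few reads were removed by filterByExpr (at least 10 counts, 15 in total), and libraries were scaled by TMM. The quasi-likelihood F test was applied with genotype as the only term. This test and the threshold of 0.01 are those that the study's methods name, but the study reported more genes than were called here. The SE is the absolute log2 fold change over the square root of F. Depths of 16196042 to 21455150 and 3 libraries per genotype limit the precision. The methods call the libraries biological replicates. The test was checked on simulated data. Alternatives used DESeq2 1.42.0 and limma 3.58.1 (TPM with pseudocounts 1 and 0.1, mean TPM of at least 1), RLE factors, other filters, the likelihood ratio test, a replicate block, an FDR of 0.05 and each library left out. In deviation from the genotype mean, same-numbered libraries correlated at -0.02 and -0.01 for replicates 1 and 2. For replicate 3 the correlation was 0.18, the highest of all pairs. The study's methods state no block, and it is given only as an alternative.

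The 46 genes and the other lists were chosen with earlier results of these data known. Values per library are given for loci with an FDR of at most 0.05 and the most abundant of each class in wild type, and further loci were shown in values after they had been seen. Genes of other lists are named at an FDR of at most 0.01, and *CKS1* in addition. The marker genes *STM*, *KNAT1*, *WUS*, *CLV3*, *AP1*, *AG*, *LFY*, *DYT1* and *VGD1*, the other meiosis genes and *CKS1* were named after their values were seen. Promoter windows and positions were computed from RefSeq's TAIR10.1, in which 31912 of the 32678 identifiers were found. Positions are 1-based. Of the 46 loci, 15 overlap another annotated gene, 14 of them on the opposite strand. Figures used matplotlib 3.10.9. Apart from the upstream sequence shown, that of another locus, with the strings in it, is not reported here.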

Additional observations from a re-analysis of the deposited data

How the results depend on the processing

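The single call among the 46 loci, *SMR1*, was kept with RLE factors, DESeq2, no filter, at least 10 counts in every library and limma with either pseudocount. The likelihood ratio test called 3 loci, all higher, namely *SMR1*, *KRP5* and *KRP6*. An FDR of 0.05 gave 7 (6 higher and 1 lower), and the replicate block gave 0. Leaving out a library gave 0 to 2 calls (0 to 1 higher and 0 to 1 lower). Over all genes, 809 were called (345 higher and 464 lower). The study reported more genes at the same threshold, a number near that of the likelihood ratio test below. The reason for this gap was not tested. DESeq2 called 1814 (751 and 1063), the likelihood ratio test 2233 (1008 and 1225) and an FDR of 0.05 2506 (1184 and 1322). limma called 532 with a pseudocount of 0.1 (209 higher) and 227 higher with a pseudocount of 1. Leaving out a library gave 167 to 1249 calls (38 to 587 higher and 124 to 662 lower), the fewest without wild type replicate 2 and the most without *bpcV* replicate 1. The cause was not tested, except that fewer libraries enter these fits. With the replicate block, 408 genes were called (138 higher and 270 lower). Same-numbered libraries correlated at -0.02, -0.01 and 0.18, and the last of these was the highest of all pairs. Wild type replicate 1 correlated best with *bpcV* replicate 2 (0.13).

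Direction was the same in all 14 alternatives for 28 of the 46 loci and turned in at least 1 for 18, whose log2 fold changes were at most 0.18 in size. With limma, *KRP2* turned to -0.0016 and -0.0038. When each library was left out, log2 fold changes ran from -0.16 to 0.056 for *CYCB3;1*, -0.29 to 0.022 for *CYCB2;3*, -0.14 to 0.12 for *CYCA1;1*, -0.0069 to 0.12 for *CYCA3;2*, -0.15 to 0.043 for *CYCD1;1*, -0.21 to 0.043 for *CYCB2;4*, -0.27 to 0.018 for *CDKB2;1*, -0.037 to 0.38 for *CDKB1;2*, -0.21 to 0.088 for *CYCB1;3*, -0.15 to 0.40 for *KRP2*, -0.33 to 0.070 for *CDKB1;1*, -0.11 to 0.20 for *CYCD3;1*, -0.057 to 0.18 for *CYCB1;1*, -0.025 to 0.090 for *CYCD5;1*, -0.13 to 0.037 for *CYCB1;2*, -0.12 to 0.12 for *CYCD4;2*, -0.15 to 0.032 for *CYCA3;1* and -0.25 to 0.072 for *KRP3*. *SDS* and *APC6* each lost their call in 5 of the 6 such fits and AT4G29000 in 2.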

Other observations

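The deposited effective length of a gene is an average over its transcripts, weighted by RSEM's estimate of their shares, so it moves when the estimated shares of transcripts differ. It differed between the genotypes by more than 20 bases for 2 of the 46 loci, against 2.34% of all genes tested, and by -4.02 to 16.1 bases for the others. Most of the others shared a difference of about 8.77 bases, among them *CDKA;1*, which has 1 transcript in RefSeq's TAIR10.1. A difference of this size therefore does not show a change in transcript shares. *CYCD5;1* had an effective length of 1257, 1263 and 1239 bases in wild type and of 1160, 1157 and 1157 bases in *bpcV*, without overlap. *KRP3* had 588, 621 and 563 bases in wild type and 664, 656 and 606 bases in *bpcV*, with overlap. For *CYCD5;1* the log2 fold change was 0.04 from counts and 0.14 from limma on log2(TPM + 1), which divides by this length, and neither passed the threshold. These 2 loci were chosen after their values were seen, and no test was made of the transcripts themselves.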
